A study of Arabidopsis thaliana with 9 samples.

Results

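The 48 genes described here are nuclear genes of Arabidopsis thaliana that make tetrapyrroles in the plastid or run transcription of the plastid genome. They were taken by locus identifier as members of these pathways. No measured value enters that rule, but the pathways were chosen with earlier results of these data known. All 48 are among the 37184 genes of the count tables. They comprise 27 genes of chlorophyll and haem synthesis, the regulators FLU and GUN4 among them, the retrograde signalling gene GUN1, the transcription factor genes GLK1 and GLK2, 6 sigma factor genes, the phage-type polymerase gene RPOTp and 11 genes for proteins associated with the plastid-encoded polymerase.

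The groups were 3 small RNA libraries of dxo1-2, a mutant of the RNA 5′-end enzyme gene DXO1, 3 small RNA libraries of wild-type Col-0 plants, and 3 ribosomal RNA-depleted, stranded RNA-seq libraries of dxo1-2. The mutant is represented by 1 allele. All plants were 21-day-old seedlings on soil that had 16 h light and 8 h dark; seeds had been stratified for 2 days at 4 °C, and no treatment is given. The title of the study links DXO1 to the chloroplast, and the small RNA contrast asks whether short RNAs over these chloroplast genes differed in the mutant. Wild-type RNA-seq was not analysed here, so RNA-seq gives levels in the mutant and no contrast.

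Tetrapyrroles are built in the plastid from glutamyl-tRNA by way of 5-aminolevulinic acid (ALA). The common path ends in protoporphyrin IX, where magnesium chelatase leads to chlorophyll and ferrochelatase to haem. Plastid genes are read by a nuclear-encoded phage-type polymerase and by a bacterial-type, plastid-encoded polymerase that needs nuclear sigma factors and a set of tightly bound associated proteins. GLK1 and GLK2 activate nuclear photosynthesis and chlorophyll genes, and GUN1 takes part in signalling from plastid to nucleus.

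Counts on genes ranged from 5022945 to 5698185 in dxo1-2 small RNA libraries, from 3976221 to 4393015 in Col-0 small RNA libraries and from 60138933 to 71210737 in the RNA-seq libraries. The 48 genes took 0.0632% to 0.0851% of small RNA counts in dxo1-2 and 0.0454% to 0.0723% in Col-0, so most single values rest on few counts. In RNA-seq the 4 green leaf markers (RBCS1A, CAB1, RCA and PSBO1) summed to 9529 to 11790 CPM (counts per 1000000 counts on genes). The 4 root markers summed to at most 0.140 CPM, with 2 at 0. In small RNA the leaf markers summed to 889 to 1108 CPM in dxo1-2 and 321 to 707 CPM in Col-0, and their part in the differences below was not tested. The markers did not rise together. CAB1 had 4203, 4235 and 4756 counts in dxo1-2, against 646, 623 and 1322 in Col-0, and RBCS1A had 1134, 1136 and 1207, against 415, 362 and 812. Counts of RCA (230, 312 and 175, against 164, 119 and 273) and PSBO1 (177, 226 and 189, against 117, 103 and 213) overlapped between genotypes. Within Col-0, replicate 3 stood apart: the members other than PRIN2 summed to 246 CPM there, against 155 and 136 CPM in Col-0 replicates 1 and 2. Calls that change without this library, and signs that turn without it, are given with the gene. In bulk seedlings, fewer cells of a type and less RNA per cell cannot be told apart.

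Small RNA was higher in dxo1-2 over 8 of the members, and the other 40 did not pass or had too few counts for the test. The edgeR quasi-likelihood test across all genes used an adjusted p under 0.05. Of the 48 members 26 had enough counts to be tested, 8 were higher in dxo1-2 (FC1, GLK1, CHLM, GUN4, CAO, CRD1, HEMA1 and PTAC2), 0 were lower and 18 did not pass. The number lower was also 0 at an unadjusted p under 0.05 and by DESeq2 and limma-voom. Over all genes tested 26.8% were higher and 23.0% lower, and over protein-coding genes 40.5% and 17.1%. The share of tested members called higher, 30.8%, lay between the 26.8% over all genes and the 40.5% over protein-coding genes. It is no result about the set. Numbers of calls per pathway step, given below, rest on few genes each and are no result about a step either. The median log2 fold change (dxo1-2 over Col-0) of the members tested was 0.15, beside -0.019 over all genes tested and 0.48 over protein-coding genes tested. A gene can pass the count filter through dxo1-2 alone, so all 48 were also set side by side without the filter. The ratio of summed, depth-scaled counts was above 1 for 32 of the 48 members (66.7%) and for 67.3% of protein-coding genes with at least 10 summed counts. Its median was 1.25 over the members and 1.48 over those protein-coding genes. Scaling moves both the members and the background. With TMM factors from small nuclear RNA genes 7 members were higher and 5 lower, beside 18.8% and 36.8% of all genes tested. With all lines as library size the members gave 11 higher and 0 lower, beside 59.2% and 4.35%. Leaving out Col-0 replicate 2 gave 6 higher and 3 lower (22.0% and 18.6% of all genes), and leaving out Col-0 replicate 3 gave 9 and 0 (28.1% and 24.0%). RefSeq shows another gene overlapping the span of 20 of the 48 members.

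**Figure D1:**
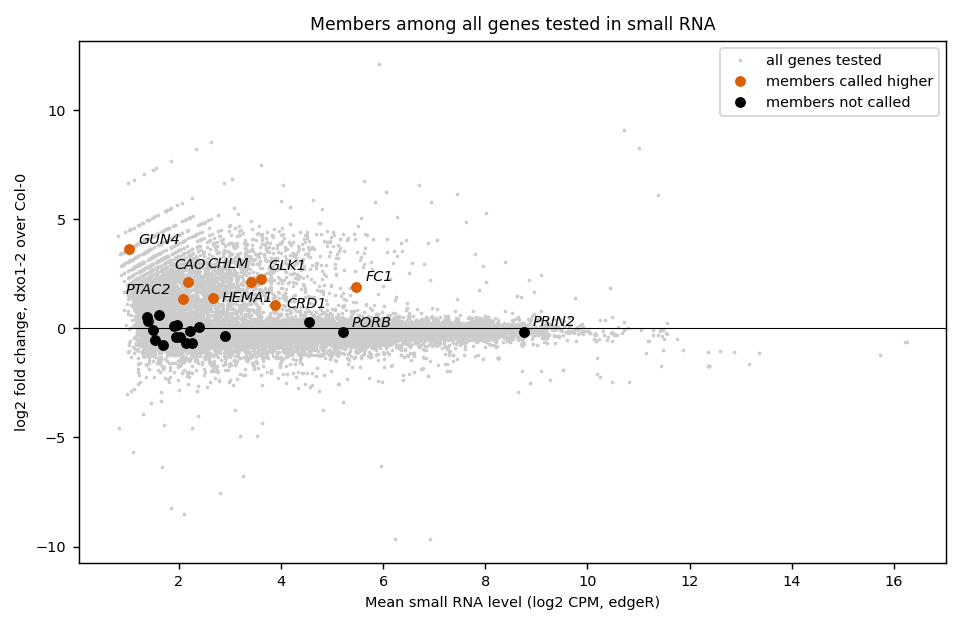
Log2 fold change (dxo1-2 over Col-0, vertical axis) against the mean small RNA level in log2 CPM (horizontal axis) for all 11534 genes tested, with the 8 tested members called higher in orange and the 18 not called in black. The 8 members called higher lie at log2 fold changes from 1.09 (CRD1) to 3.64 (GUN4), and PRIN2 has the highest mean level of the members.

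Among the enzymes, the ferrochelatase gene FC1 (AT5G26030) had the lowest adjusted p. Ferrochelatase inserts iron into protoporphyrin IX and so makes haem. FC1 had 344, 357 and 464 small RNA counts in dxo1-2, against 68, 56 and 72 in Col-0. In CPM this was 66.8 ± 14.03 in dxo1-2 and 17.8 ± 2.53 in Col-0 (SD, n = 3 each), and every dxo1-2 library was above every Col-0 library. This gave a log2 fold change of 1.91 ± 0.17 (SE) with an adjusted p of 2.5e-06 in edgeR, and the call was kept in all 17 alternatives. RefSeq places a microRNA gene inside FC1, which is not analysed here, and a 34-base overlap with HDA2, a histone deacetylase gene. HDA2 had 5, 2 and 0 counts in dxo1-2 and 0, 0 and 3 in Col-0. The counts of FC1 cannot be divided between its mRNA and the microRNA gene, since the tables give neither read length nor position.

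The other ferrochelatase gene, FC2 (AT2G30390), had 4, 2 and 3 counts in dxo1-2 and 6, 3 and 5 in Col-0, too few for the test. Its ratio of summed counts was 0.403, with an exact 95% interval of 0.154 to 1 that covers counting error only. Since FC1 and FC2 are read in the same library, their ratio does not depend on scaling. FC2 had 0.0116, 0.0056 and 0.00647 counts for each FC1 count in dxo1-2, against 0.0882, 0.0536 and 0.0694 in Col-0. All 3 dxo1-2 values lay below all 3 Col-0 values. An exact permutation test of 3 against 3 libraries cannot go below p = 0.1, so none is given for this or any of the 8 other isogene ratios computed.

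In ALA synthesis 1 of 4 tested genes rose. HEMA1 (AT1G58290) encodes the main leaf isoform of glutamyl-tRNA reductase, the regulated first step of the pathway. It had 38, 61 and 40 counts in dxo1-2, against 7, 5 and 22 in Col-0. In CPM the Col-0 replicate 3 value of 5.93 lay just above the lowest dxo1-2 value of 5.88, so the groups touched. The log2 fold change was 1.37 ± 0.46 (adjusted p = 0.0260, edgeR). The call was lost without Col-0 replicate 1 (adjusted p = 0.0917), Col-0 replicate 2 (0.0936), dxo1-2 replicate 2 (0.121) or dxo1-2 replicate 3 (0.0537). The value without Col-0 replicate 3 was 2.24. HEMA1 needed its dxo1-2 counts to pass the count filter, and with no filter its adjusted p was 0.000436 (edgeR).

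HEMA2 (AT1G09940), the isoform known from non-green tissue, had 8, 9 and 5 counts in dxo1-2 and 6, 1 and 5 in Col-0 and was not tested. The glutamate-1-semialdehyde aminomutase genes GSA1 and GSA2, which complete ALA synthesis, had log2 fold changes of -0.12 ± 0.40 and -0.67 ± 0.45. FLU, whose protein represses glutamyl-tRNA reductase in the dark, had -0.060 ± 0.42. None of these passed. Without Col-0 replicate 3 the sign turned for GSA1 (0.35) and FLU (0.071), and under small nuclear RNA scaling GSA2 was called lower (-1.06, adjusted p = 0.0225, edgeR).

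The common steps from ALA to protoporphyrin IX gave 0 calls among 5 tested genes of 7, too few genes to set against the 40.5% of protein-coding genes called higher. HEMB1 (ALA dehydratase) had 15, 13 and 11 counts in dxo1-2, against 13, 7 and 21 in Col-0, a log2 fold change of -0.74 ± 0.42 (adjusted p = 0.160, edgeR). HEMC (porphobilinogen deaminase) had 20, 23 and 19 counts in dxo1-2 and 21, 9 and 32 in Col-0, a log2 fold change of -0.67 ± 0.41 (adjusted p = 0.197). For both genes all dxo1-2 libraries lay inside the range of the Col-0 libraries, in CPM too. Both were called lower under small nuclear RNA scaling (adjusted p = 0.0300 for HEMB1 and 0.0175 for HEMC, edgeR) and without Col-0 replicate 2 (0.0474 and 0.0256). The uroporphyrinogen decarboxylase genes HEME1 and HEME2 had log2 fold changes of -0.38 ± 0.34 and 0.16 ± 0.34, and the coproporphyrinogen oxidase gene HEMF1 had -0.39 ± 0.39, or 0.046 without Col-0 replicate 3. HEMD (uroporphyrinogen III synthase) and PPOX1 (protoporphyrinogen oxidase) were untested, with 9 and 32 summed counts in dxo1-2 and 8 and 16 in Col-0.

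In the magnesium branch 3 of 7 tested genes rose, CHLM, GUN4 and CRD1. Beside the 40.5% of protein-coding genes tested that were called higher, this is no result about the branch. CHLM (AT4G25080), the methyltransferase of magnesium protoporphyrin IX, had 79, 92 and 96 counts in dxo1-2, against 6, 11 and 22 in Col-0. Its level was 15.4 ± 2.70 CPM in dxo1-2 and 3.52 ± 2.18 CPM in Col-0 (n = 3 each), with no overlap. The log2 fold change was 2.11 ± 0.34 (adjusted p = 0.000300, edgeR), kept in all 17 alternatives. CHLM needed its dxo1-2 counts to pass the count filter, and with no filter its adjusted p was 9.7e-13 (edgeR).

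GUN4 (AT3G59400), a porphyrin-binding activator of magnesium chelatase and a gene of plastid signalling, had 19, 14 and 12 counts in dxo1-2, against 0, 1 and 1 in Col-0. All dxo1-2 libraries were above all Col-0 libraries. With 2 summed counts in Col-0, the ratio was 14.1 with a counting interval of 3.69 to 120. The call (adjusted p = 0.000656, edgeR) was kept in the 16 alternatives that tested the gene. GUN4 passed the count filter through its dxo1-2 counts alone, so being tested at all depended on the group where it is high. With no filter its adjusted p was 5.7e-05 (edgeR). GUN4 lies for 946 of its 1296 bases inside the span of GCN2, which had 6, 4 and 7 counts in dxo1-2 and 5, 5 and 3 in Col-0.

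CRD1 (AT3G56940), a subunit of the cyclase that closes the fifth ring of chlorophyll, had 102, 125 and 100 counts in dxo1-2, against 19, 20 and 58 in Col-0. The libraries did not overlap in CPM, but Col-0 replicate 3, at 15.6 CPM, came within 0.2 of the lowest dxo1-2 library at 15.8 CPM. The log2 fold change was 1.09 ± 0.34 (adjusted p = 0.0175, edgeR). It was lost without Col-0 replicate 1 (adjusted p = 0.0730), Col-0 replicate 2 (0.0687) or dxo1-2 replicate 2 (0.0765), and was 1.78 without Col-0 replicate 3.

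The magnesium chelatase subunit genes themselves did not pass. CHLH (AT5G13630), the large porphyrin-binding subunit also known as GUN5, had 124, 182 and 128 counts in dxo1-2, against 60, 49 and 117 in Col-0. Its log2 fold change of 0.28 ± 0.29 (adjusted p = 0.432, edgeR) became 0.71 (adjusted p = 0.0239) without Col-0 replicate 3, and passed when scaled by library totals (adjusted p = 0.0369) or by all lines of the tables, unassigned reads included (0.0137). CHLD had 0.073 ± 0.38, and the ATPase subunit genes CHLI1 and CHLI2 had -0.36 ± 0.33 and 0.61 ± 0.40. The CHLI1 value was 0.083 without Col-0 replicate 3. DVR, which reduces a vinyl group of the chlorophyll precursor, had 10, 19 and 10 counts in dxo1-2 and 4, 3 and 6 in Col-0. It was not tested.

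Of the last chlorophyll steps only CAO passed among 4 tested genes of 5. CAO (AT1G44446), the oxygenase that makes chlorophyll b, had 35, 40 and 31 counts in dxo1-2, against 3, 4 and 8 in Col-0, with no overlap. Its log2 fold change was 2.13 ± 0.41 (adjusted p = 0.000986, edgeR), kept in all 17 alternatives. Like GUN4, CAO passed the count filter through its dxo1-2 counts alone, and with no filter its adjusted p was 1.0e-05 (edgeR). Among the light-dependent protochlorophyllide oxidoreductases, PORB had 223, 173 and 213 counts in dxo1-2, against 141, 111 and 180 in Col-0. That is 34.6 ± 2.67 CPM in dxo1-2 and 39.2 ± 9.51 CPM in Col-0, a log2 fold change of -0.18 ± 0.16 that did not pass and whose sign depends on the scaling. PORB was called lower under small nuclear RNA scaling (-0.58, adjusted p = 0.0245, edgeR) and without Col-0 replicate 2 (-0.37, 0.0460), and higher with all lines as library size (0.40, 0.0437). PORC and the chlorophyll synthase gene CHLG had 0.33 ± 0.46 and 0.53 ± 0.52, and PORA was not tested, with 25 and 14 summed counts in dxo1-2 and Col-0.

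**Figure D2:**
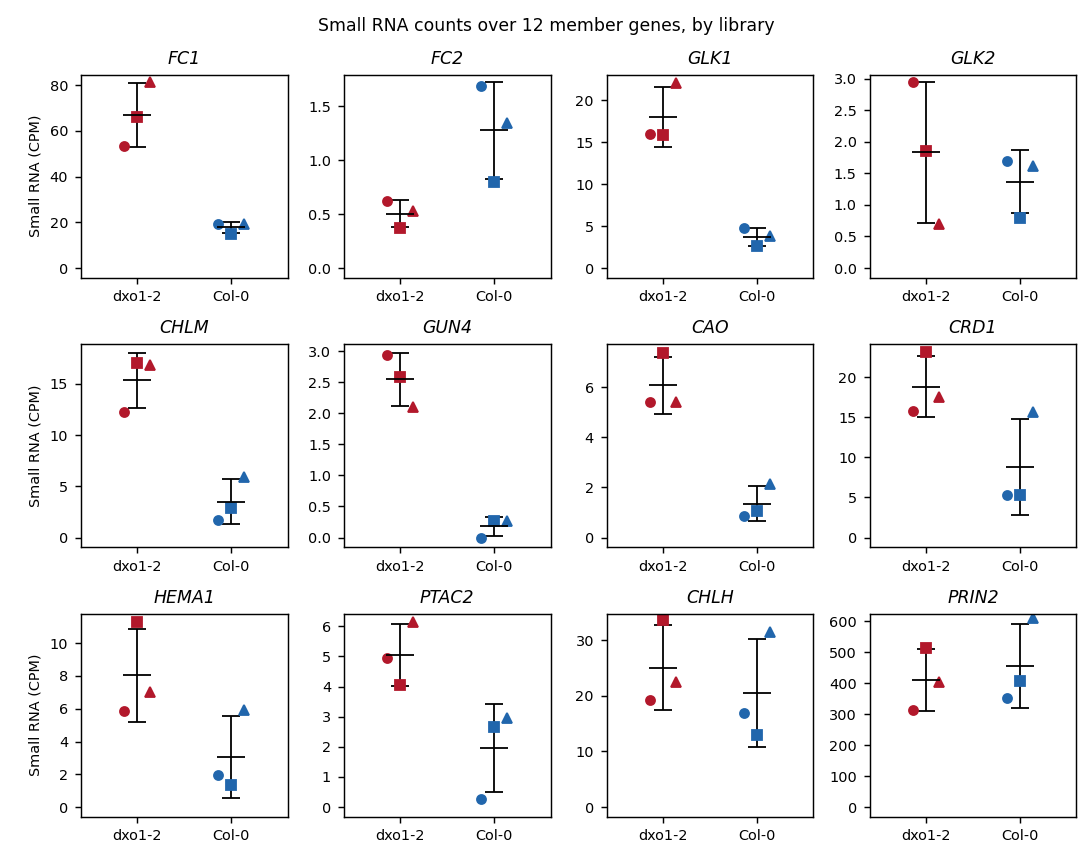
Small RNA level in CPM (vertical axes, each with its own scale) of 12 members in dxo1-2 (left, red) and Col-0 (right, blue). Circles, squares and triangles are replicates 1, 2 and 3, and black lines give the mean and SD. FC1, GLK1, CHLM, GUN4, CAO, CRD1 and PTAC2 lie higher in dxo1-2 with no overlap between genotypes, and FC2 lies lower with none. HEMA1, GLK2, CHLH and PRIN2 overlap. The Col-0 replicate 3 triangle is the highest Col-0 point for all but FC2, GLK1 and GLK2.

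Of the regulators, GLK1 (AT2G20570) had 103, 86 and 126 counts in dxo1-2, against 17, 10 and 14 in Col-0. Its level was 18.0 ± 3.55 CPM in dxo1-2 and 3.74 ± 1.06 CPM in Col-0 (n = 3 each), with the groups well apart. That is a log2 fold change of 2.26 ± 0.26 (adjusted p = 2.7e-05, edgeR), kept in all 17 alternatives, and RefSeq shows no gene overlapping it. Its paralogue GLK2 (AT5G44190) had 19, 10 and 4 counts in dxo1-2, against 6, 3 and 6 in Col-0, and was not tested. Within libraries, there were 5.42, 8.6 and 31.5 GLK1 counts per GLK2 count in dxo1-2, against 2.83, 3.33 and 2.33 in Col-0. The ranges of this ratio did not overlap, and the high value of replicate 3 rests on only 4 GLK2 counts. GUN1, a pentatricopeptide repeat protein gene, had 24, 19 and 18 counts in dxo1-2 and 4, 11 and 20 in Col-0, a log2 fold change of 0.13 ± 0.44 that did not pass.

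Ratios of the other isogene pairs overlapped between genotypes. HEMA1 counts per HEMA2 count were 4.75, 6.78 and 8 in dxo1-2, against 1.17, 5 and 4.4 in Col-0. CHLI1 counts per CHLI2 count were 2.19, 2.40 and 1.67 in dxo1-2, against 2.10, 2.75 and 11.8 in Col-0. The FC2 to FC1 and GLK1 to GLK2 ratios reuse the counts of called genes, and no share over other gene pairs was computed. Their lack of overlap is thus no separate result.

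The sigma factors, which direct the plastid-encoded polymerase to promoters, carried few small RNA counts, and 0 of 6 could be tested. SIG1, SIG2, SIG3 and SIG6 had 32, 27, 32 and 32 summed counts in dxo1-2 and 12, 17, 10 and 15 in Col-0. SIG4 had 17 in dxo1-2 and 5 in Col-0, and the light- and stress-responsive SIG5 had 4 in dxo1-2 and 1 in Col-0. Their ratios ran from 0.996 (SIG2) to 2.51 (SIG5), and the counting interval of each contained 1. SIG3 had 19 of its dxo1-2 counts in replicate 3. RPOTp, the phage-type polymerase of the plastid, had 25 in dxo1-2 and 9 in Col-0, a ratio of 1.74 (0.787 to 4.24).

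Of the 11 polymerase-associated genes 3 were tested and 1 rose. PTAC2 (AT1G74850), a pentatricopeptide repeat protein of the polymerase complex, had 32, 22 and 35 counts in dxo1-2, against 1, 10 and 11 in Col-0, with no overlap in CPM. Its log2 fold change was 1.33 ± 0.49 (adjusted p = 0.0376, edgeR). The call was lost with scaling by small nuclear RNA genes (adjusted p = 0.0610), on leaving out Col-0 replicate 1 (0.106) or any dxo1-2 library (0.0808, 0.0570 and 0.135). PTAC2 needed its dxo1-2 counts to pass the count filter, and with no filter its adjusted p was 0.00796 (edgeR). For the fructokinase-like gene FLN2 the log2 fold change was -0.55 ± 0.40, short of the threshold.

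PRIN2 (AT1G10522), needed for redox-dependent plastid gene expression, carried more small RNA than all other members together. It had 2018, 2778 and 2299 counts in dxo1-2, against 1254, 1527 and 2263 in Col-0. These were 56.0% to 63.5% of all member counts in dxo1-2 and 69.5% to 74.9% in Col-0. RefSeq places a long non-coding RNA gene over part of PRIN2; it had 2 summed counts in dxo1-2 and 0 in Col-0. The PRIN2 level was 410 ± 101 CPM in dxo1-2 and 456 ± 136 CPM in Col-0 (n = 3 each), and the groups overlapped. The log2 fold change was -0.16 ± 0.19 (adjusted p = 0.513, edgeR). It was 0.078 without Col-0 replicate 3, and PRIN2 was called lower under small nuclear RNA scaling (-0.56, adjusted p = 0.0131). Over all members, summed levels were 558, 808 and 698 CPM in dxo1-2, against 507, 543 and 856 CPM in Col-0. Without PRIN2 they were 245, 295 and 295 CPM in dxo1-2, against 155, 136 and 246 CPM in Col-0. The genotypes overlapped with PRIN2, and without it Col-0 replicate 3 met the lowest dxo1-2 library.

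The 8 associated genes below the filter had 20 to 38 counts in all. TRXz, a thioredoxin of the complex, had 5, 4 and 8 in dxo1-2, against 1, 0 and 2 in Col-0, a ratio of 3.55 with a counting interval of 1.03 to 18.9. Its CPM values did not overlap, and with no filter its adjusted p was 0.198 (edgeR). The iron superoxide dismutase genes FSD2 and FSD3, whose products protect the plastid nucleoid, had ratios of 2.26 (0.808 to 7.78) and 2.09 (0.810 to 6.36), and FLN1 had 1.88 (0.650 to 6.62). PTAC14, MURE and PTAC3 had ratios of 1.18, 1.36 and 0.823. PTAC12, also known as HEMERA, had 17 summed counts in dxo1-2 and 18 in Col-0, a ratio of 0.592 (0.287 to 1.22). Of all 22 untested members 17 had a ratio above 1, and with no filter 0 of them passed. Beside them stand 67.3% of protein-coding genes with at least 10 summed counts, a group not limited to low counts. The 17 are thus no result about the members. Over the 48 members 8 had dxo1-2 libraries entirely above Col-0 (7 of those called, and TRXz), against 31.2% among protein-coding genes with at least 10 summed counts. Only 1, FC2, lay entirely below, on 9 summed counts in dxo1-2 and 14 in Col-0. The share of genes entirely below was not computed, so this is no result about the members. Among the 26 tested members 7 lay entirely above, against 44.2% of protein-coding genes tested and 31.1% of all genes tested.

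**Figure D3:**
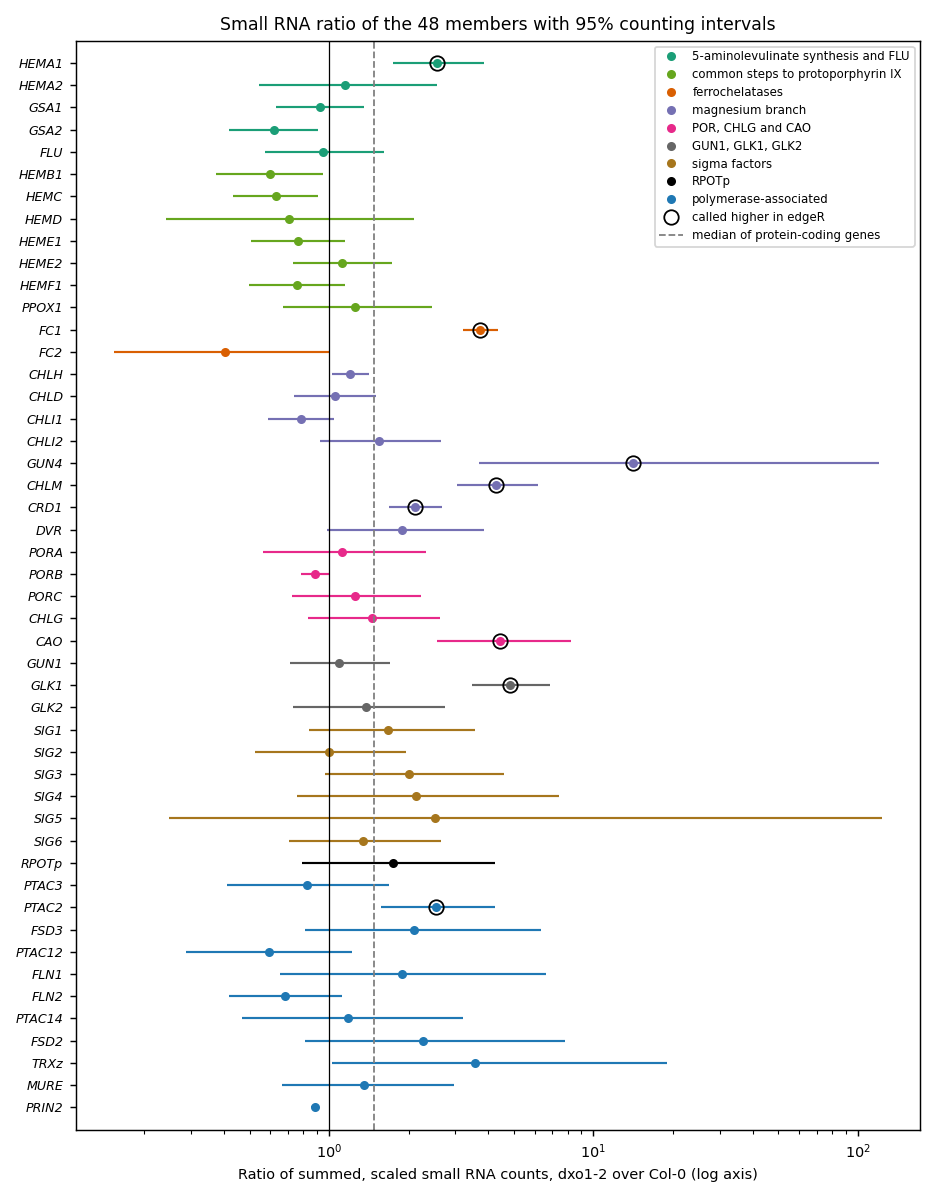
Ratio of summed, depth-scaled small RNA counts (dxo1-2 over Col-0, log axis) for each of the 48 members, coloured by role, with exact 95% intervals that cover counting error only. Ringed genes were called higher in edgeR, the solid line marks a ratio of 1 and the dashed line the protein-coding median of 1.48. Wide intervals of the sigma factors and associated proteins show how few counts they had.

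Other genes of the same pathways were followed as a comparison. Of 39 such genes 15 were tested, 7 were higher and 1 lower, beside 40.5% higher and 17.1% lower over protein-coding genes tested. Their median log2 fold change was 0.69, beside 0.48 over protein-coding genes tested and -0.019 over all genes tested. With 15 genes, these values are no result about the pathway. SIB1 (AT3G56710), a sigma factor-binding protein gene, had 80, 74 and 85 counts in dxo1-2, against 0, 1 and 2 in Col-0. From 3 summed counts in Col-0 the ratio was 49.96 with a counting interval of 16.9 to 244 (adjusted p = 1.4e-06, edgeR). It passed the count filter through its dxo1-2 counts alone, and with no filter its adjusted p was 4.2e-29 (edgeR). SIB1 is also known as a defence-responsive gene, and its sigma factor partner SIG1 had a ratio of 1.67 (0.839 to 3.57).

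CHLP (AT1G74470), the geranylgeranyl reductase that supplies the phytol tail of chlorophyll, had 190, 257 and 236 counts in dxo1-2, against 38, 29 and 65 in Col-0 (log2 fold change 1.71 ± 0.25, adjusted p = 0.000169, edgeR). The light-harvesting-like gene LIL3:1, whose protein anchors that enzyme, rose with 1.48 ± 0.49. PPOX2, the second protoporphyrinogen oxidase gene, rose with 2.10 ± 0.37, and PTAC6 and PTAC5 rose with 2.76 ± 0.46 and 1.76 ± 0.47. Like SIB1, PPOX2, PTAC6 and PTAC5 passed the count filter through dxo1-2 alone. The chlorophyll b reductase gene NYC1, which acts in chlorophyll breakdown, rose with 1.09 ± 0.39. LIL3:1 and NYC1 also needed their dxo1-2 counts to pass the count filter. With no filter their adjusted p was 0.00123 and 0.0439 (edgeR). PTAC16 (AT3G46780) fell, with 24, 28 and 25 counts in dxo1-2, against 28, 22 and 45 in Col-0 (log2 fold change -0.97 ± 0.32, adjusted p = 0.0240, edgeR). The count of lower genes was 0 without Col-0 replicate 3, dxo1-2 replicate 1 or dxo1-2 replicate 3, and with library totals alone, all lines as library size or scaling by pseudogenes.

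The RNA-seq libraries show how strongly the members were expressed in dxo1-2. Their median was 58.2 CPM, beside 12.1 CPM over 17226 protein-coding genes with at least 1 CPM. Plastid and mitochondrial genes took 48.2% to 49.1% of these counts, and with nuclear genes alone as the library the median was 113 CPM. Levels are compared between genes per kilobase of annotated gene span, introns included, since exon lengths were not used here. CRD1 stood highest at 1092 ± 50.9 CPM per kb (SD, n = 3). PORB (368 ± 6.81) and CHLH (353 ± 20.9) followed and overlapped each other, then CHLI1 (236 ± 6.20) and HEMA1 (183 ± 6.51). The lowest were HEMD (4.45 ± 0.399), RPOTp (4.60 ± 0.311) and SIG3 (5.37 ± 0.175). Of the 47 neighbouring pairs in this order 32 overlapped in their library values.

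By role, the highest and lowest RNA-seq levels per kb were HEMA1 and HEMA2 (6.08 ± 1.30) in ALA synthesis, HEME2 (76.6 ± 2.42) and HEMD in the common steps, and CRD1 and CHLD (20.6 ± 0.423) in the magnesium branch. PORB and PORA (21.2 ± 2.29) bounded the last steps, GUN1 (24.5 ± 0.577) and GLK2 (11.6 ± 1.81) the regulators, and SIG6 (24.6 ± 1.44) and SIG3 the sigma factors. FLN2 (13.6 ± 1.22) and PTAC2 (5.79 ± 0.517) bounded the associated proteins.

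Isogenes were unequal in RNA-seq per kb. HEMA1 exceeded HEMA2 31.0 ± 6.41 times (SD, n = 3), PORB exceeded PORC 5.49 ± 0.155 times and PORA 17.6 ± 2.07 times, and CHLI1 exceeded CHLI2 3.80 ± 0.253 times. HEME2 exceeded HEME1 1.92 ± 0.0604 times, GLK1 exceeded GLK2 1.54 ± 0.219 times and GSA2 exceeded GSA1 1.36 ± 0.0518 times. The ferrochelatase genes were near equal, with FC2 at 1.13, 0.924 and 0.737 times the level of FC1. Across libraries the SD of a member was 0.508% (HEME1) to 21.4% (HEMA2) of its mean, with a median of 4.69%.

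**Figure D4:**
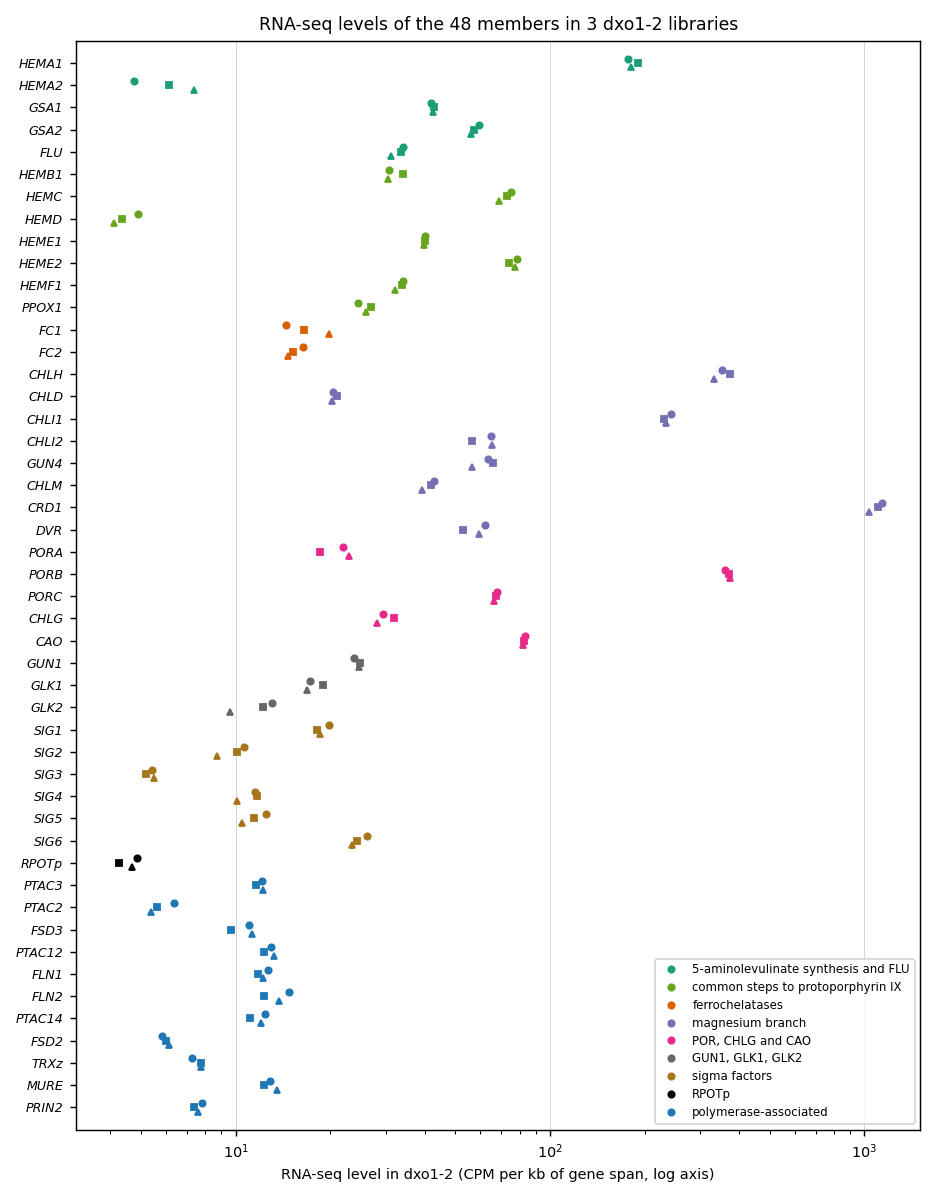
RNA-seq level of the 48 members in dxo1-2, in CPM per kb of gene span (log axis), coloured by role, with circles, squares and triangles for replicates 1, 2 and 3. CRD1 is highest at 1092 and HEMD lowest at 4.45, and sigma factors and associated proteins lie at 24.6 or less.

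Small RNA and RNA-seq were set against each other gene by gene, as small RNA CPM per RNA-seq CPM in dxo1-2. The median over members was 0.0332, beside 0.0804 over protein-coding genes with at least 1 RNA-seq CPM. PRIN2 had a ratio of 27.3, from 410 ± 101 small RNA CPM and 15.0 ± 0.410 RNA-seq CPM in dxo1-2, and 0.412% of those protein-coding genes had a ratio as high or higher. FC1 had 1.44 (4.38% as high or higher) and GLK1 had 0.414 (13.1%). The other called genes had lower ratios, 0.223 for PTAC2, 0.198 for CHLM, 0.0317 for GUN4, 0.0248 for CAO, 0.0163 for HEMA1 and 0.00888 for CRD1. FC2, with about the RNA-seq level of FC1, had 0.0102.

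Across the 48 members, Spearman's rho between summed small RNA and RNA-seq counts was 0.630 for dxo1-2 small RNA and 0.621 for Col-0 small RNA, both against dxo1-2 RNA-seq. Over 17226 protein-coding genes it was 0.485 and 0.532. These are descriptions across genes, which differ in length and share their libraries. PRIN2 and FC1 had far more small RNA than other members of like RNA-seq level in both genotypes.

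**Figure D5:**
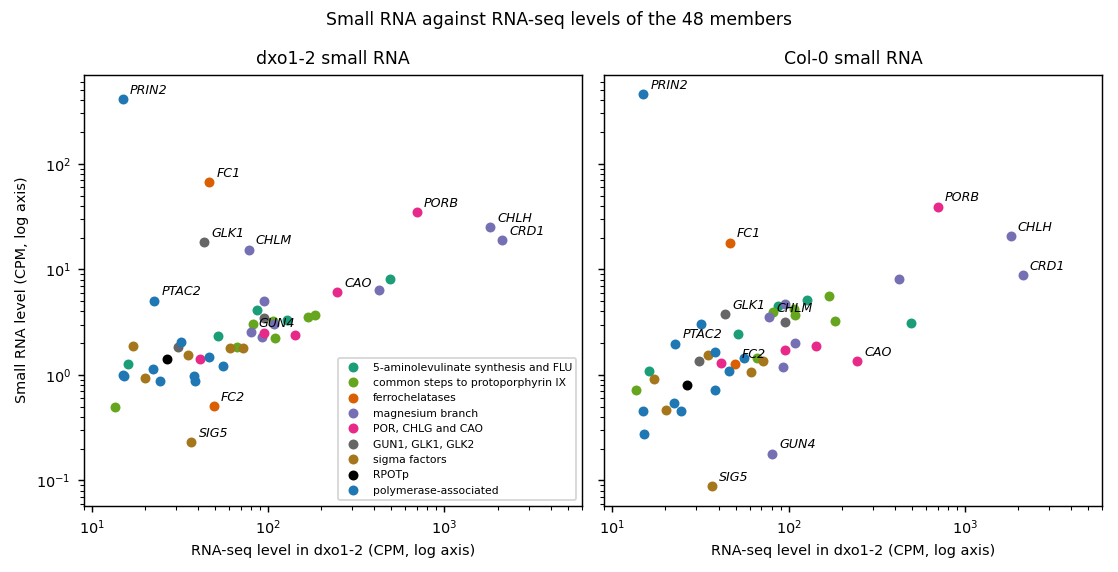
Mean small RNA level in CPM (vertical log axis) against mean RNA-seq level in dxo1-2 in CPM (horizontal log axis) for the 48 members, with dxo1-2 small RNA on the left and Col-0 small RNA on the right. PRIN2 (410 CPM in dxo1-2, 456 CPM in Col-0) and FC1 (66.8 CPM in dxo1-2, 17.8 CPM in Col-0) lie above the other members at their RNA-seq levels, and GUN4 lies within the main group in dxo1-2 (2.54 CPM) and at the low edge in Col-0 (0.179 CPM).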

How the data were processed

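The authors deposited raw counts per gene. Each library's table holds 37184 genes, and its 5 summary lines were left out of tests. Reads without an annotated feature were 61.7% to 68.4% of all lines in small RNA and 7.67% to 9.06% in RNA-seq. The tools named, per the submitters' processing notes, are Bowtie, HISAT2, bedtools, HTSeq and DESeq2, and the build is TAIR10. Settings for strand and for reads with several matches are not given in the sources used here. A gene and an overlapping, antisense or near-identical gene therefore cannot be told apart with certainty. The labels call the replicates biological.

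Libraries were grouped by their titles. Small RNA was tested with edgeR 4.0.16 (R 4.3.3), using TMM scaling, the default count filter (11534 genes kept), genotype as the only term, and a prior count of 0.125. P-values were two-sided, adjusted by Benjamini-Hochberg over all genes tested, with a threshold of 0.05. SEs of log2 fold changes are approximate: each is the size of the change divided by the root of its F statistic. Small RNA CPM used TMM scaling and RNA-seq CPM the total on genes. The alternatives covered scaling, filter, tool (DESeq2 1.42.0, limma-voom with limma 3.58.1), a replicate block and leaving out each library. The edgeR step was tested on simulated data for this contrast with 11534 genes: it called 49% of 100 genes changed by a log2 of 1, 86% of 100 changed by 2 and 0.114% of 11334 unchanged genes. Far fewer genes were changed there than in the data, where 26.8% were called higher and 23.0% lower. These rates may therefore not hold for the real contrast.

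The members, the gene lists and the rule for named genes were chosen with earlier results of these data known. By that rule every member is accounted for, members past the filter are given with values and a test, and those below it by counts; PTAC5, PTAC6, PTAC16, SIB1, CHLP, LIL3:1, PPOX2 and NYC1 are named because they were called. Overlaps and spans come from a RefSeq table of TAIR10.1, which matched all 48 members. No coordinates or sequences are printed, because the table's build differs by name from that of the counts and no sequences were used here. Replicates differed by more than sampling noise in every pair, with chi-square per gene from 3.49 to 14.4.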

Additional observations from a re-analysis of the deposited data

How the results depend on the processing

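The 17 alternatives kept 5 of the 8 called members throughout (FC1, GLK1, CHLM, GUN4 and CAO). GUN4 was tested in only 16 of them, and GUN4 and CAO passed the main count filter through dxo1-2 alone. CHLM, like the called members HEMA1 and PTAC2, also needed its dxo1-2 counts to pass that filter. The number called higher, 8, was 5 to 9 without 1 library, with 5 without Col-0 replicate 1 or dxo1-2 replicate 2. The number called lower, 0, became 5 with TMM factors of small nuclear RNA genes, and it was 0 to 3 without 1 library, with 3 (HEMB1, HEMC and PORB) without Col-0 replicate 2. The members' median log2 fold change of 0.15 was 0.72 with all lines as library size, where the median of all genes tested moved to 0.55, and -0.23 under small nuclear RNA scaling, where it moved to -0.39. It was 0.48 with library totals alone (all genes 0.31). Other pathway genes called higher, 7, were 11 with all lines and 5 to 9 without 1 library. The 1 called lower became 0 with library totals alone, all lines or TMM from pseudogenes, and was 0 to 1 without 1 library. The median RNA-seq level of 58.2 CPM was 113 CPM with counts on nuclear genes only, a larger share by construction. The log2 ratio of summed member CPM, 0.11, was 0.45 with library totals alone, 0.69 with all lines and 0.64 without PRIN2, an alternative chosen after seeing the data. Without PRIN2 and the 8 called members the mean sums were 137.7 CPM in dxo1-2 and 138.5 CPM in Col-0.

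Signs turned for members that were not called. With library totals alone GSA1 was 0.22, FLU 0.27, PORB 0.16 and PRIN2 0.17. With all lines GSA1 was 0.46, FLU 0.51, HEME1 0.18, HEMF1 0.18, CHLI1 0.21, PORB 0.40 (adjusted p = 0.0437), FLN2 0.017 and PRIN2 0.41. Under small nuclear RNA scaling HEME2 was -0.22, CHLH -0.12, CHLD -0.33, PORC -0.051 and GUN1 -0.24. With TMM from pseudogenes GSA1 was 0.0079 and FLU 0.073, and with limma-voom 0.0022 and 0.0072. Leaving out 1 library gave ranges from -0.48 to 0.35 for GSA1, -0.42 to 0.16 for FLU, -0.61 to 0.046 for HEMF1, -0.24 to 0.62 for CHLD, -0.57 to 0.083 for CHLI1, -0.042 to 0.63 for PORC, -0.29 to 0.72 for GUN1 and -0.35 to 0.078 for PRIN2. The cause was not tested.

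The labels do not say that replicate numbers pair plants. Same-numbered small RNA libraries had correlations of deviations of 0.111, -0.095 and -0.0349. Deviations from a mean of 3 libraries depend on each other, so these values cannot show whether same-numbered samples were handled together. With the replicate block the counts stayed at 8 higher and 0 lower, FLU was 0.0050, and not every library correlated best with its own number. Depth limits the 22 untested members, which had 5 to 52 counts in all.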
